A study of Danio rerio with 6 samples.

Results

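The coat of caveolae is built from caveolins and cavins, and 9 zebrafish genes of these families were examined, the caveolins *cav1*, *cav2* and *cav3* and the cavins *cavin1a*, *cavin1b*, *cavin2a*, *cavin2b*, *cavin4a* and *cavin4b*. They were chosen by gene name, and all 9 were present among the 32520 genes measured. Whole larvae were collected at 4 dpf, 60 to a pool, and 3 pools of *mgt* larvae and 3 pools of WT larvae were sequenced. The *mgt* (maggot) larvae are given as plod3 KO in the labels and as *mgt*-/- in the methods, which do not say which of the ENU-induced *mgt* alleles this RNA came from. *plod3* encodes an enzyme that hydroxylates collagen lysines and adds sugars to them. WT larvae were of the AB strain, which is also the background in which the *mgt* alleles were kept. The labels give the WT pools one batch number and the *mgt* pools another, so batch and genotype cannot be told apart. The labels and a figure legend of the study call the pools biological replicates, and another legend calls them technical. The SD and p-values below thus measure the spread between these pools.

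Caveolae are small flask-shaped pits of the plasma membrane. Caveolins are hairpin proteins embedded in the inner leaflet, and cavins are soluble proteins that assemble on the caveolin layer from the cytoplasm and hold the pit in shape. Under stretch the pits flatten and the coat comes apart, which gives the cell spare membrane. Caveolae are abundant in muscle fibers, in endothelium and in the vacuolated cells of the zebrafish notochord, and zebrafish that lack *cav1* or *cavin1b* lose vacuolated cells when the notochord is loaded by swimming. *cav3*, *cavin4a* and *cavin4b* belong to striated muscle, where caveolae also take part in the formation of transverse tubules.

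Expression was given as RPKM, the reads of a gene divided by its length in kilobases and by the size of its library. The gene length used is not given in the sources used here, so levels of different genes are compared as the authors scaled them. Wherever 3 values are given for a genotype they are replicates 1, 2 and 3. From the steps of single reads in short genes the library sizes, in units of 1000000 reads, were 42.6, 38.3 and 40.6 in *mgt*, against 43.4, 43.5 and 50.3 in WT. The least expressed of the 9 genes, *cavin1a*, thus rested on 211 to 319 reads per kilobase in each library. The gene mutated in *mgt*, *plod3*, was at 23.9, 24.3 and 24.4 RPKM in the libraries labelled *mgt*, against 16.8, 15.3 and 14.2 RPKM in WT. Its transcript was thus higher in *mgt* as deposited (log2 fold change 0.63, limma adjusted p = 0.00436, against a median log2 fold change of 0.29 over all genes tested). A point mutation can leave a transcript in place, so this level does not check the labels. WT replicate 1 stood apart from the other WT libraries. On the first principal component of all genes tested, with WT replicates 2 and 3 averaging 0 and *mgt* averaging 1, WT replicate 1 was at 0.53. A gene was called changed when limma gave a Benjamini-Hochberg adjusted p below 0.05 over the 20435 genes tested and a log2 fold change of at least 0.32 in size, on the log2(RPKM + 0.5) scale. In whole larvae, fewer cells of a type and less RNA per cell cannot be told apart.

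Of the 9 genes, 1 was called lower in *mgt* (*cav3*), 0 were called higher and 8 were not called. By the same rule 15.6% of all genes tested were called lower, 31.8% were called higher and 47.4% were called in either direction. The estimated log2 fold change was negative in 8 of the 9 genes, and in 33.6% of all genes tested. Their median was -0.25, against a median of 0.29 over all genes tested. With all libraries brought to an equal sum of RPKM these medians were -0.020 and 0.49. In 3 genes (*cav1*, *cav3* and *cavin2a*) the *mgt* libraries all lay below the WT libraries, in 0 they all lay above, and in 6 the groups overlapped. Of all genes tested 21.6% lay below in this way, 41.7% above, and 63.4% either below or above. These counts describe the 9 genes and carry no test.

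**Figure D1:**
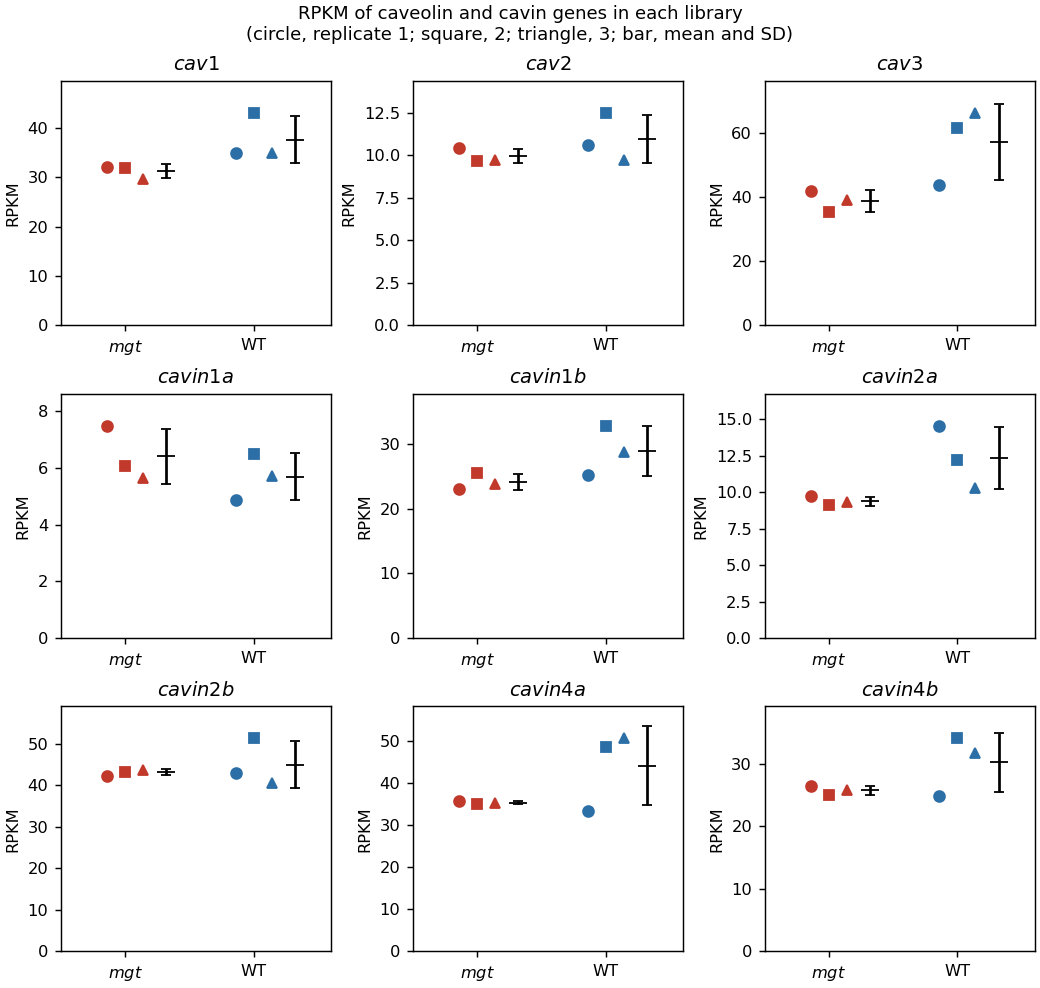
RPKM of each caveolin and cavin gene in the 3 *mgt* libraries (red) and the 3 WT libraries (blue), with marker shapes for the replicate number and bars for the mean and SD (n = 3 pools). The SD was smaller in *mgt* than in WT in 8 of the 9 genes, a count not taken over all genes tested, so it does not set these genes apart. The *mgt* libraries of *cav1*, *cav3* and *cavin2a* lie below all WT libraries.

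*cav1* and *cav2* lie next to each other on chromosome 25 of GRCz11. *cav1* (ENSDARG00000103747) runs from 18563476 to 18577586 and *cav2* (ENSDARG00000052000) from 18556588 to 18561795, with 1680 bases and 0 listed genes between them. *cav3* (ENSDARG00000024141) lies on chromosome 6 from 41996066 to 42003780, the chromosome that also holds *cavin2b* (ENSDARG00000071196, 8707812 to 8736766). Chromosome 24 holds *cavin1b* (ENSDARG00000059362, 7631797 to 7668158) and *cavin4b* (ENSDARG00000056743, 33697130 to 33703504). *cavin1a* (ENSDARG00000076411) lies on chromosome 3 from 16976095 to 17012340, *cavin2a* (ENSDARG00000027611) on chromosome 9 from 24220315 to 24244383, and *cavin4a* (ENSDARG00000038658) on chromosome 2 from 42191592 to 42198600. The a and b copies of each cavin are thus on different chromosomes. These positions span the whole gene, introns included, from 5208 bases in *cav2* to 36362 bases in *cavin1b*.

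All 9 genes were expressed in every library, with means from 6.41 to 43.1 RPKM in *mgt* and from 5.69 to 57.25 RPKM in WT. In *mgt* the order of mean RPKM was *cavin2b* (43.1), *cav3* (38.9), *cavin4a* (35.3), *cav1* (31.2), *cavin4b* (25.8), *cavin1b* (24.1), *cav2* (9.95), *cavin2a* (9.37) and *cavin1a* (6.41). In WT it was *cav3* (57.25), *cavin2b* (45.0), *cavin4a* (44.1), *cav1* (37.6), *cavin4b* (30.3), *cavin1b* (28.9), *cavin2a* (12.3), *cav2* (10.96) and *cavin1a* (5.69). Neighbors in this order often overlapped between libraries. In *mgt* this held for *cav3* and *cavin4a*, for *cavin4b* and *cavin1b*, and for *cav2* and *cavin2a*, and in WT for the top 4 genes, for *cavin4b* and *cavin1b*, and for *cavin2a* and *cav2*. The gap between *cavin1b* and the 3 lowest genes was free of overlap in both genotypes.

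*cav1* encodes the caveolin that forms caveolae outside striated muscle. Its RPKM was 32.0, 31.9 and 29.5 in *mgt*, against 34.85, 43.0 and 34.8 in WT. The *mgt* libraries lay just below WT replicates 1 and 3, and WT replicate 2 was well above the rest. The mean was 31.2 ± 1.40 in *mgt* and 37.6 ± 4.73 in WT (SD, n = 3 pools each), a log2 fold change of -0.26 (standard error 0.11, 95% interval -0.53 to 0.012) that was not called (limma with Benjamini-Hochberg adjustment, adjusted p = 0.0956). *cav2* encodes a caveolin that enters caveolae together with Cav1 and does not form them alone. Its RPKM was 10.4, 9.68 and 9.74 in *mgt*, against 10.6, 12.5 and 9.76 in WT, so the groups overlapped. The mean was 9.95 ± 0.41 in *mgt* and 10.96 ± 1.41 in WT (SD, n = 3 pools each), a log2 fold change of -0.13 (standard error 0.12, 95% interval -0.42 to 0.16, limma adjusted p = 0.394 with Benjamini-Hochberg adjustment). WT replicate 2 was the highest library for both of these neighboring genes.

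*cav3* encodes the caveolin of striated muscle and had the largest estimated fall of the 9 genes. Its RPKM was 42.0, 35.3 and 39.3 in *mgt*, against 43.7, 61.6 and 66.4 in WT. All 3 *mgt* libraries lay below the WT libraries, but WT replicate 1 was close to *mgt* replicate 1 and far from the other WT libraries. The mean was 38.9 ± 3.36 in *mgt* and 57.25 ± 11.96 in WT (SD, n = 3 pools each). *cav3* was called lower, with a log2 fold change of -0.53 (standard error 0.17, 95% interval -0.94 to -0.12, limma adjusted p = 0.0417 with Benjamini-Hochberg adjustment). An exact permutation test of *cav3* alone gave a two-sided p of 0.10, the smallest that 3 libraries against 3 allow. The call was close to its threshold. With each replicate other than WT replicate 1 left out in turn the limma adjusted p of *cav3* lay between 0.0871 and 0.134, and without WT replicate 1 it was 0.000199. Without WT replicate 3, *cavin2a* was the gene called lower instead (log2 fold change -0.49, limma adjusted p = 0.0393).

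The *cavin1* genes encode the cavin that every caveola requires. For *cavin1a* the RPKM was 7.5, 6.08 and 5.66 in *mgt*, against 4.86, 6.51 and 5.71 in WT. The groups overlapped, with *mgt* replicate 1 the highest and WT replicate 1 the lowest library. *cavin1a* was the only one of the 9 genes with a positive estimate, a log2 fold change of 0.16 (standard error 0.16, 95% interval -0.22 to 0.54, limma adjusted p = 0.42 with Benjamini-Hochberg adjustment). For *cavin1b* the RPKM was 23.1, 25.5 and 23.8 in *mgt*, against 25.2, 32.85 and 28.7 in WT. WT replicate 1 lay within the range of *mgt*, and WT replicates 2 and 3 were above it. The mean of *cavin1b* was 24.1 ± 1.2 in *mgt* and 28.9 ± 3.82 in WT (SD, n = 3 pools each), a log2 fold change of -0.25 (standard error 0.12, 95% interval -0.54 to 0.037, limma adjusted p = 0.121 with Benjamini-Hochberg adjustment).

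The *cavin2* genes encode a cavin that bends membrane and that in mammals is prominent in endothelium. For *cavin2a* the RPKM was 9.71, 9.09 and 9.30 in *mgt*, against 14.55, 12.2 and 10.3 in WT. The *mgt* libraries were close together and below all WT libraries, and WT replicate 1 was the highest library. The log2 fold change of *cavin2a* was -0.37 (standard error 0.14, 95% interval -0.70 to -0.026), with a limma adjusted p of 0.0705 after Benjamini-Hochberg adjustment, so it was not called. For *cavin2b*, the copy with the higher RPKM in every library, the RPKM was 42.3, 43.3 and 43.7 in *mgt*, against 43.1, 51.4 and 40.7 in WT. All 3 *mgt* libraries lay inside the WT range. The log2 fold change of *cavin2b* was -0.055 (standard error 0.11, 95% interval -0.32 to 0.21, limma adjusted p = 0.687 with Benjamini-Hochberg adjustment), the smallest in size of the 9 genes.

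The *cavin4* genes encode the cavin of striated muscle, the partner of Cav3 in muscle caveolae. For *cavin4a* the RPKM was 35.7, 35.0 and 35.3 in *mgt*, against 33.4, 48.45 and 50.6 in WT. For *cavin4b* it was 26.6, 25.05 and 25.8 in *mgt*, against 25.0, 34.2 and 31.8 in WT. In both genes WT replicate 1 was the lowest of all 6 libraries and the other WT libraries were the highest, so the groups overlapped through WT replicate 1 alone. The log2 fold change was -0.29 for *cavin4a* (standard error 0.17, 95% interval -0.69 to 0.10) and -0.22 for *cavin4b* (standard error 0.13, 95% interval -0.53 to 0.10). Neither was called, with limma adjusted p of 0.171 for *cavin4a* and 0.204 for *cavin4b* after Benjamini-Hochberg adjustment.

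**Figure D2:**
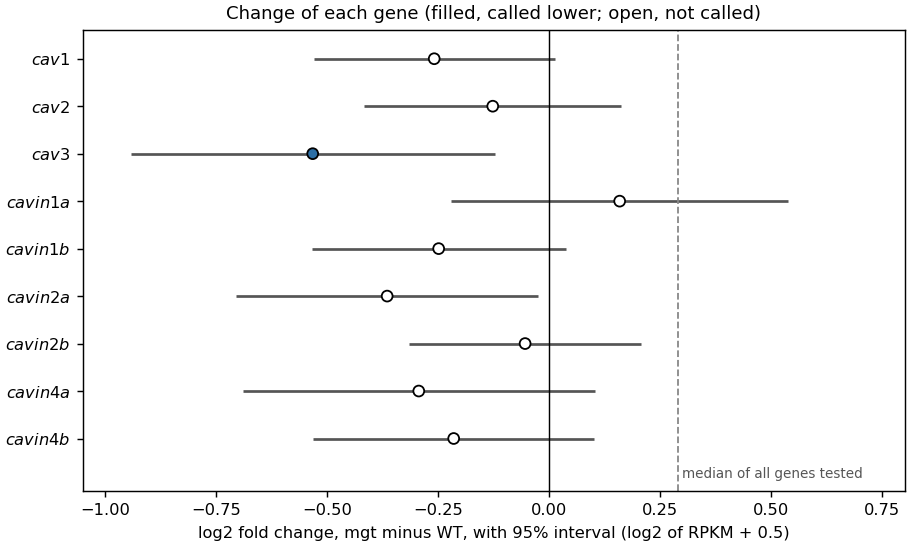
Log2 fold change of *mgt* minus WT for each gene, with the 95% interval from limma as a horizontal bar, a filled point for the gene called lower (*cav3*) and open points for genes not called. The dashed line is the median of all genes tested (0.29), and the intervals of *cav3* (-0.94 to -0.12) and *cavin2a* (-0.70 to -0.026) lie below 0.

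In the 3 muscle genes WT replicate 1 stood apart from the other WT libraries and near *mgt*. On the log2 scale, WT replicate 1 minus the mean of WT replicates 2 and 3 was -0.54 for *cav3*, -0.56 for *cavin4a* and -0.39 for *cavin4b*. Against WT replicate 1 alone, *mgt* was at -0.17 for *cav3*, 0.080 for *cavin4a* and 0.047 for *cavin4b*. Against WT replicates 2 and 3 alone, the same differences were -0.71, -0.48 and -0.35 in that order. The 24 skeletal muscle markers, listed with earlier results known, went the same way in WT replicate 1, with a median of -0.53 against WT replicates 2 and 3, and their part in these values was not tested. Outside the muscle genes, WT replicate 1 minus WT replicates 2 and 3 was -0.30 for *cavin1a* and -0.28 for *cavin1b*. It was smaller in size for *cav1* (-0.15), *cavin2b* (-0.085) and *cav2* (-0.055). Over the 9 genes the median of this difference was -0.28. Against WT replicate 1 alone, *mgt* was at 0.36 for *cavin1a* and -0.063 for *cavin1b*. *cavin2a* did the opposite, with WT replicate 1 at 0.37 above WT replicates 2 and 3 and *mgt* at -0.61 against WT replicate 1. Over all genes tested, WT replicate 1 was 0.28 above the other WT libraries at the median.

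With WT replicate 1 left out, 4 of the 9 genes were called lower in *mgt* and 0 higher. On the first principal component this library stood at 0.53 on the way from the other WT libraries to *mgt*. Leaving it out thus widens the gap between the groups. Of the 20411 genes then tested 18.1% were called lower, 52.2% higher and 70.3% in either direction. The 4 genes were *cav3* (-0.71), *cavin4a* (-0.48), *cavin4b* (-0.35) and *cavin1b* (-0.34). After Benjamini-Hochberg adjustment limma gave p of 0.000199 for *cav3*, 0.00021 for *cavin4a*, 0.00214 for *cavin4b* and 0.0067 for *cavin1b*. *cav1* (-0.31, limma adjusted p = 0.0226) and *cavin2a* (-0.24, limma adjusted p = 0.0396) passed the p threshold there and fell short of the fold threshold. *cav2*, *cavin1a* and *cavin2b* did not pass the p threshold with or without WT replicate 1. With any other single library left out instead, the 4 genes called here were not called. The p-values of this paragraph thus rest on which WT library is left out and are no separate test.

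**Figure D3:**
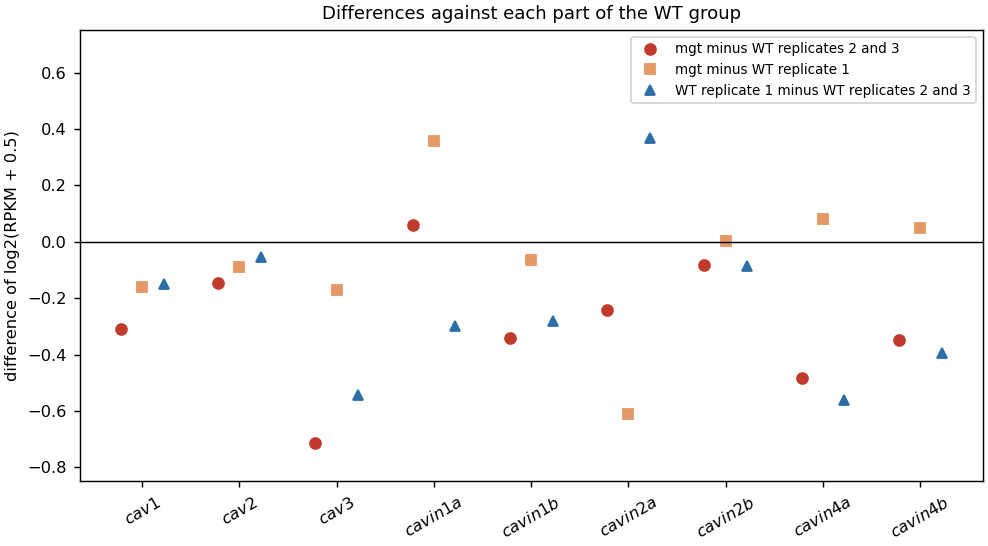
Difference of log2(RPKM + 0.5) for each gene between *mgt* and WT replicates 2 and 3 (circles), between *mgt* and WT replicate 1 (squares), and between WT replicate 1 and WT replicates 2 and 3 (triangles). For *cavin4a* and *cavin4b* the squares lie at 0.080 and 0.047 and the triangles at -0.56 and -0.39.

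The ratio of a gene to another in the same library hardly moves when the library is multiplied by a single factor, so 6 log2 ratios were compared between genotypes. The log2 ratio of *cavin1b* to *cavin1a* was 1.56, 1.98 and 1.98 in *mgt*, against 2.26, 2.25 and 2.23 in WT, a difference of -0.41. The log2 ratio of *cavin2b* to *cavin2a* was 2.07, 2.19 and 2.17 in *mgt*, against 1.53, 2.03 and 1.94 in WT, a difference of 0.31. For both ratios the groups did not overlap, and the exact two-sided permutation p was 0.10, the smallest possible, or 0.30 after adjustment over the 6 ratios. In the first, *mgt* replicate 1 stood below the other *mgt* libraries, and in the second WT replicate 1 stood below the other WT libraries. Scalings that are not a single factor moved these ratios. After quantile normalization the difference of *cavin1b* to *cavin1a* was -0.16 (exact permutation p = 0.6). With a trend of level with gene span removed, that of *cavin2b* to *cavin2a* was 0.25 (exact permutation p = 0.2). Under the other of these scalings each kept an exact permutation p of 0.10. The remaining ratios overlapped between groups. The difference was -0.13 for *cav1* to *cav2* (mean 1.599 ± 0.062 in *mgt* and 1.73 ± 0.058 in WT), 0.27 for *cav1* to *cav3* and 0.079 for *cavin4b* to *cavin4a*. The ratio of *cav1* to *cavin1b*, the pair whose loss harms the notochord in zebrafish, was 0.36 ± 0.088 in *mgt* and 0.37 ± 0.093 in WT (SD, n = 3 pools each), a difference of -0.010 (exact permutation p = 1.0).

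The direction of several of the 9 genes depended on the scaling of the libraries. The median of all genes moved with the scaling too, from 0.49 with all libraries brought to an equal sum of RPKM to -0.0016 after quantile normalization. The median of the 9 genes was -0.020 with the equal sum, -0.55 with median-of-ratios factors and -0.33 after quantile normalization. It was -0.15 with a trend of level with gene span removed. As deposited, the RPKM of all genes summed to 433328 to 440381 in *mgt* and to 480412 to 545881 in WT. *cav1*, *cav3*, *cavin1b*, *cavin2a* and *cavin4a* had a negative log2 fold change as deposited and under all 4 other scalings tried. *cav2* turned to 0.095 with the same sum and 0.055 once the trend of log2 level with gene span was taken out of each library. *cavin2b* turned to 0.18 and *cavin4b* to 0.014 with the same sum, and *cavin1a* turned to -0.12 with median-of-ratios factors, -0.19 with quantile normalization and -0.012 with the span trend removed. Set against the median of all genes under the same scaling, all 9 genes were lower under each of the 5 scalings. Subtracting that median nearly cancels a single factor per library. The distances as deposited, with the same sum and with median-of-ratios factors are therefore alike by design. By definition as many genes lie below a median as above it, and the count carries no test. For *cav3* the distance to the median was between -0.51 (quantile normalization) and -0.86 (median-of-ratios factors), and for *cavin1a* between -0.11 (same sum) and -0.26 (span trend removed). *cav3* was called lower as deposited, with median-of-ratios factors and with quantile normalization, and not with the same sum (limma adjusted p = 0.11) or with the span trend removed (limma adjusted p = 0.088). *cavin2a* was called lower with median-of-ratios factors, quantile normalization and the span trend removed, with limma adjusted p of 0.00445, 0.00297 and 0.0394.

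**Figure D4:**
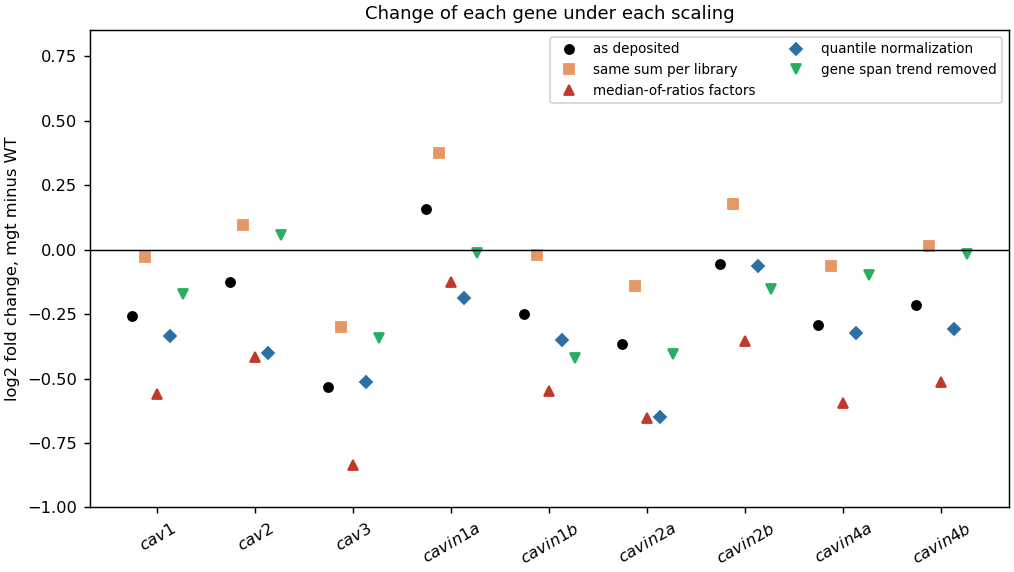
Log2 fold change of *mgt* minus WT for each gene with the RPKM as deposited and under 4 other scalings. The *cav3* points lie between -0.83 and -0.30, whereas those of *cavin1a* lie on both sides of 0, between -0.19 and 0.37.

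Genes listed for the caveola neck or its anchoring were, as a list and as deposited, close to all genes tested. They were pacsins, EHD ATPases, *ror1*, which scaffolds caveolin and cavin in mammalian cells, and *flna*, an actin crosslinker. Of the EHD ATPases, *ehd2* acts at the neck of the pit. The other EHD genes were listed as members of its family, and these data do not show that they act at the neck. Of the 9 genes tested, 3 were called higher and 0 lower, a share of 33.3% called higher against 31.8% of all genes tested. Their median log2 fold change was 0.28, against 0.29 for all genes tested. It was 0.51 with the same sum, 0.068 with quantile normalization, -0.012 with median-of-ratios factors and -0.083 with the span trend removed. For all genes tested these medians were 0.49, -0.0016, 0.028 and 0.25 in that order. *flna* had an RPKM of 54.4, 50.5 and 51.2 in *mgt*, against 36.0, 35.85 and 27.2 in WT, a log2 fold change of 0.66 (limma adjusted p = 0.00986) that was not called with median-of-ratios factors (0.36, limma adjusted p = 0.062). *ehd3* rose by 0.72 and *ehd4* by 0.42 on the log2 scale (limma adjusted p = 0.0141 and 0.0333 with Benjamini-Hochberg adjustment), with no overlap between groups in either. The call of *ehd4* was lost with median-of-ratios factors (0.14, limma adjusted p = 0.513) and with quantile normalization (0.074, limma adjusted p = 0.751). It was also lost when any *mgt* replicate or WT replicate 3 was left out (limma adjusted p 0.071 to 0.132), as was that of *ehd3* without *mgt* replicate 1, *mgt* replicate 2 or WT replicate 3 (limma adjusted p 0.0507 to 0.0628). *ehd1b* was at -0.28 and was not called, at 25.3, 25.95 and 25.4 RPKM in *mgt*, against 29.3, 36.8 and 28.0 RPKM in WT. Of the a and b copies of *ehd2*, a neck ATPase, both named after their values were seen, *ehd2b* was at 14.7, 15.1 and 14.0 RPKM in *mgt*, against 11.6, 13.1 and 11.3 RPKM in WT, without overlap, and was not called (0.27, limma adjusted p = 0.0628). *ehd2a* was below the filter of a mean RPKM of 0.5, at most 0.21 RPKM in any library.

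Flotillins form membrane domains of their own, apart from caveolae. Of the 4 flotillin genes 2 were called higher and 0 lower, *flot2a* and, named after its values were seen, *flot1a*. Of all genes tested 31.8% were called higher, and 4 genes are too few to set against that share. *flot2a* had an RPKM of 114, 120 and 120 in *mgt*, against 91.8, 83.3 and 75.9 in WT, a log2 fold change of 0.50 (limma adjusted p = 0.00967), and *flot1b* was at -0.063 and was not called (limma adjusted p = 0.527). *flot2a* was not called with median-of-ratios factors (0.20, limma adjusted p = 0.217), with the span trend removed (0.32, just under the fold threshold), or without *mgt* replicate 2 or 3 (limma adjusted p = 0.0517 and 0.0515). Of 12 genes of the transverse tubule and triad, the membrane system that couples excitation to contraction, 6 were called higher and 0 lower, where 31.8% of all genes tested were called higher. The median of these 12 was 0.48. It was 0.70 with the same sum, 0.19 with median-of-ratios factors, 0.15 with quantile normalization and 0.090 with the span trend removed. For all genes tested these medians were 0.49, 0.028, -0.0016 and 0.25 in that order, and 0.29 as deposited. The median of the list thus lay below that of all genes tested once the span trend was removed. *jph1b*, a junctophilin that ties the tubule to the sarcoplasmic reticulum, was called higher at 0.47 (limma adjusted p = 0.0461), but was not called in 11 of the 19 alternatives. Among these were median-of-ratios factors (0.17, limma adjusted p = 0.565), the span trend removed (0.32, limma adjusted p = 0.173), quantile normalization (0.38, limma adjusted p = 0.109) and leaving out any *mgt* replicate or WT replicate 3 (limma adjusted p 0.0866 to 0.147). *jph2* was at -0.13 and was not called (limma adjusted p = 0.415). The muscle coat genes *cav3*, *cavin4a* and *cavin4b* were at -0.53, -0.29 and -0.22 in the same libraries, and at -0.34, -0.098 and -0.019 with the span trend removed.

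Among markers of the tissues that carry caveolae, skeletal muscle went both ways, and endothelial and notochord genes were mostly higher in *mgt*. Of all genes tested 31.8% were called higher and 15.6% lower. Of 24 skeletal muscle rows tested, 4 were called higher and 4 lower, 16.7% each way. Their median of -0.18 turned to 0.049 with the same sum and 0.27 with quantile normalization. Their most abundant genes, *ckma* (0.41) and *mylpfa* (-0.15), were not called. Their summed RPKM ranged from 22501 to 24206 in *mgt* and from 19780 to 31792 in WT. Of 19 endothelial markers 14 (73.7%) were called higher and 0 lower, among them *plvapb* (0.52, limma adjusted p = 0.0492) and *cldn5b* (0.71, limma adjusted p = 0.00274). Their median was 0.71, and 0.42 with median-of-ratios factors and 0.37 with quantile normalization. The 5 endothelial markers not called, named after their values were seen, were *lyve1b* (0.50), *clec14a* (0.37), *plvapa* (0.27), *flt4* (-0.074) and *mrc1a* (-0.11). *plvapb* was not called in 12 of the 19 alternatives, among them median-of-ratios factors (0.22, limma adjusted p = 0.513), quantile normalization (0.45, limma adjusted p = 0.0989) and leaving out any library other than WT replicate 1 (limma adjusted p 0.0566 to 0.146). The summed RPKM of the endothelial list was 149 to 164 in *mgt*, against 91.45 to 108 in WT. Of 14 notochord markers tested 9 (64.3%) were called higher and 0 lower (median 1.39), and their sum was 1080 to 1143 in *mgt*, against 349 to 487 in WT. Much of this sum was *col2a1a*, which is also a gene of cartilage, so the sum does not measure the notochord alone. *col2a1a*, the chain of type II collagen in the notochord sheath and in cartilage, was at 588, 600 and 611 RPKM in *mgt*, against 208, 212 and 131 RPKM in WT (log2 fold change 1.74, limma adjusted p = 0.00155), and *col9a2* rose by 1.05 (limma adjusted p = 0.00167). *tbxta*, the defining transcription factor of the notochord and named here after its values were seen, was at 4.01, 3.61 and 5.02 RPKM in *mgt*, against 0.11, 0.08 and 0.18 RPKM in WT. *noto*, another defining gene, was below the filter, at no more than 0.24 RPKM in any library. The 5 notochord markers not called, named after their values were seen, were *epyc* (0.32), *wt1b* (0.28), *col9a1a* (0.24), *rab32a* (-0.057) and *entpd5a* (-0.11). *cav1* and *cavin1b* were at -0.26 and -0.25 in the same libraries, and the part of these lists in their values was not tested.

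Most epidermis markers and 4 of 7 smooth muscle markers were called lower in *mgt*, where 15.6% of all genes tested were called lower. Of 12 epidermis markers 9 were called lower and 0 higher (median -1.60), with a summed RPKM of 4444 to 4989 in *mgt*, against 15187 to 16184 in WT, and *krt4* and *cyt1* fell by 1.58 and 1.73 on the log2 scale (limma adjusted p = 0.000542 and 0.00021). The other 3 epidermis markers, *tp63*, *cdh1* and *epcam*, named after their values were seen, were not called (0.16, 0.10 and 0.025). Of the smooth muscle markers 0 were called higher, and those called lower included *tagln* (-0.79, limma adjusted p = 0.0104) and *acta2* (-0.76, limma adjusted p = 0.0113, and 0.0518 without *mgt* replicate 3). The list's median was -0.64, and -0.42 with the same sum. The other 3 smooth muscle markers, *smtnb* (0.52), *myh11a* (-0.24) and *lmod1b* (-0.097), named after their values were seen, overlapped between groups and were not called. The summed RPKM of the smooth muscle list was 130 to 142 in *mgt*, against 203 to 259 in WT. The coat genes are used by several of these tissues, a whole larva gives no value for a single tissue, and the part of these lists in the values of the 9 genes was not tested.

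**Figure D5:**
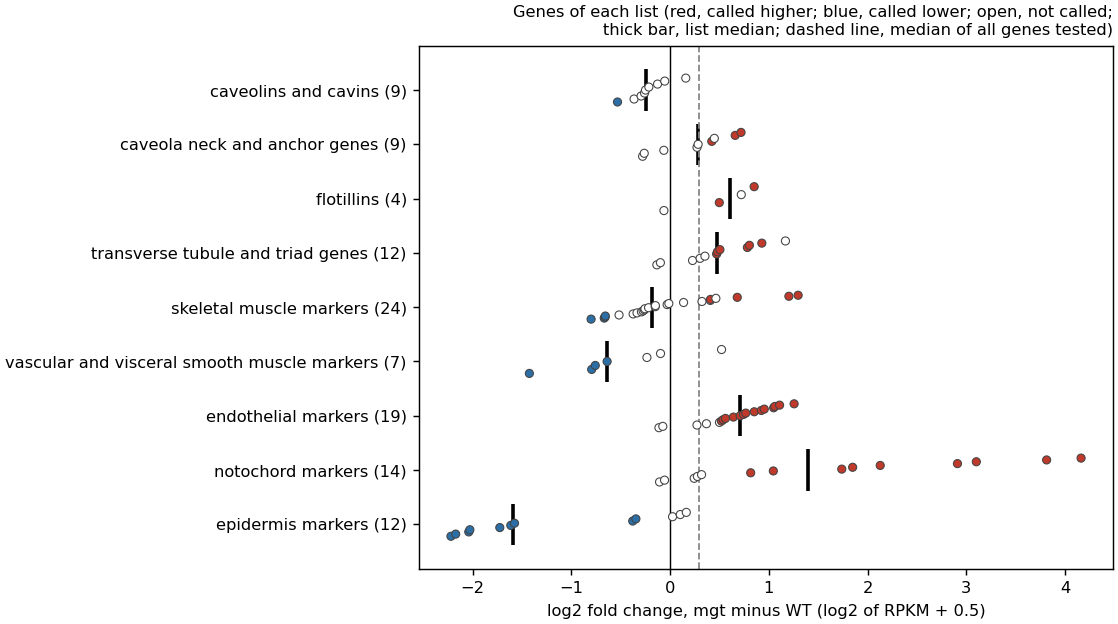
Log2 fold change of *mgt* minus WT for each tested gene of 9 lists, with the number of genes in parentheses, red for called higher, blue for called lower, open for not called, a thick bar for the list median and a dashed line for the median of all genes tested (0.29). The caveolin and cavin genes lie between -0.53 and 0.16 with a median of -0.25, whereas the medians of the endothelial and notochord markers are 0.71 and 1.39 and that of the epidermis markers is -1.60.

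Set against the median level of such markers in the same library, a measure that hardly moves with a library factor and was chosen after the values were seen, *cav1* was 2.41, 2.22 and 2.08 log2 units above the endothelial markers in *mgt*, against 3.20, 3.51 and 3.21 in WT. For *cavin1b* these distances were 1.95, 1.90 and 1.77 in *mgt*, against 2.74, 3.12 and 2.93 in WT. Both genes thus stood closer to the endothelial markers in *mgt*, by about 1.07 and 1.06 log2 units, with no overlap between groups. Against the notochord markers *cav1* was 0.97, 0.95 and 0.74 log2 units higher in *mgt* and 3.17, 3.76 and 3.58 higher in WT. Against the epidermis markers the distances went the other way, with *cav1* at -1.96, -1.97 and -1.96 in *mgt* and -3.05, -2.77 and -3.15 in WT, a difference of 1.02, and *cavin1b* differing by 1.03, both without overlap. The endothelial, notochord and epidermis lists themselves had median log2 fold changes of 0.71, 1.39 and -1.60. *cav1* and *cavin1b* were at -0.26 and -0.25 and were not called. Each distance holds the change of its list, so the lack of overlap is no result on *cav1* or *cavin1b* alone. *cavin4a* against the skeletal muscle markers was at -4.22, -4.13 and -4.11 in *mgt* and at -4.15, -4.24 and -4.11 in WT, and *cavin4b* overlapped as well. *cav3* against the same markers was at -3.98, -4.12 and -3.95 in *mgt* and -3.76, -3.90 and -3.72 in WT, a difference of -0.22 without overlap. The distance of *cav3* also holds the change of the muscle list, and no such distance was taken over all genes tested. The lack of overlap is thus no result on *cav3* alone.

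The genes with patterns most like those of the highest caveolin and the highest cavin were found by the root mean square difference of centered log2 values over the 6 libraries, among the 9452 named genes whose RPKM averaged 5 or more. Nearest to *cav3* were *ldb3b* (0.056), a Z-disc protein gene, *igfn1.3* (0.058) and *inka1b* (0.059). *ldb3b* was at 52.6, 49.6 and 51.9 RPKM in *mgt*, against 59.0, 84.96 and 85.5 RPKM in WT, with WT replicate 1 again the lowest WT library. Nearest to *cavin2b* were *xbp1* (0.031), *mfsd8* (0.037) and *kdelr2b* (0.038), and all of these had WT replicate 2 as their highest library, like *cavin2b*. These genes were picked for likeness over the same 6 libraries, so a shared highest or lowest library largely follows from the choice. With 6 libraries in a pair of groups, such likeness rests on few values and carries no test.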

How the data were processed

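Per the labels, reads were checked with FastQC, trimmed with cutadapt 5.2, aligned to GRCz11 with STAR and counted on genes with HTSeq. The labels name more than a single kit for removing ribosomal RNA, without saying which pool had which. The authors deposited RPKM values rounded to 2 decimals. They named these values as free of outliers, and what was left out is not given in the sources used here. The gene length behind them is not given in the sources used here. It is shorter than the gene span, because RPKM times span in kilobases summed to between 7022730 and 8660200 per library, above the limit of 1000000. The authors' columns of group means, SD and the ratio of means were not used. The methods name DESeq2 for the authors' own comparison, which needs counts.

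Of 32521 lines, 32520 genes were kept. A pseudocount of 0.5 RPKM was added before the log2. Genes whose RPKM averaged 0.5 or more, 20435 in all, entered limma (version 3.58.1, R 4.3.3, eBayes with an intensity trend), and p-values were adjusted over all of these genes by the Benjamini-Hochberg method. All limma adjusted p given are of this kind. Ratios within libraries were compared by exact two-sided permutation. The 9 members were all named, and other lists by their 2 most abundant genes, with every called gene of the neck list. The members and lists were chosen with earlier results of these data known. *trim72* was not found by name, and *myhz1.1* has 2 rows. Library totals came from genes spanning at most 160 bases, where all values examined were multiples of a single read within 0.0051 RPKM, against 4.34% to 5.65% by chance. The code was tested on simulated data. 19 alternatives were tried (other pseudocounts, filters, scalings, variance models, thresholds, a replicate block and leaving out each library). Plots were drawn with matplotlib 3.10.9.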

Additional observations from a re-analysis of the deposited data

How the results depend on the processing

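As deposited, 6494 genes were called higher and 3194 lower in *mgt*, and of the 9 caveolin and cavin genes 1 was called lower. None (0) was called higher under any of the 19 alternatives. With no filter on low values 4055 genes were called higher and 0 members lower. With the same sum per library 1903 genes and 0 members were called lower, with median-of-ratios factors 4972 genes and 3 members (*cav1*, *cav3*, *cavin2a*), with quantile normalization 5338 genes and 4 members (these and *cav2*), and with the gene span trend removed 2 members (*cavin1b*, *cavin2a*). The split into higher and lower was 8857 and 1903 with the same sum, 4845 and 4972 with median-of-ratios factors and 4672 and 5338 with quantile normalization, against 6494 and 3194 as deposited. The study's fold threshold read on the log2 scale left 1687 genes higher, 487 lower and 0 members. Leaving out each library in turn gave 2343 to 10654 genes higher, 1689 to 3698 lower and 0 to 4 members lower, the highest of each without WT replicate 1; without WT replicate 3 the member called was *cavin2a* in place of *cav3*. Replicate numbers did not pair the libraries (correlations of deviations -0.030, 0.030 and 0.027), and with the replicate number as a block 5588 genes were called higher, 2533 lower and 0 members. Signs that turned, beside those of members given above, were with the same sum *flot1b* (0.17), *jph2* (0.098), *mylpfa* (0.083), *xbp1* (0.19), *mfsd8* (0.15), *kdelr2b* (0.20) and the skeletal muscle median (0.049), and for members *cav2* (0.095), *cavin2b* (0.18) and *cavin4b* (0.014). With median-of-ratios factors they were *cavin1a* (-0.12) and the neck list median (-0.012). With quantile normalization they were *cavin1a* (-0.19), *flot1b* (0.038), *jph2* (0.022), *mylpfa* (0.35), *xbp1* (0.13), the skeletal muscle median (0.27), the median of all genes (-0.0016) and the ratios of *cav1* to *cav2* (0.066) and to *cavin1b* (0.017). With the span trend removed they were *cav2* (0.055), *cavin1a* (-0.012), *mylpfa* (0.037), *xbp1* (0.13), *kdelr2b* (0.16), the neck list median (-0.083) and the ratio of *cav1* to *cavin1b* (0.25). With a library left out, the ratio of *cav1* to *cavin1b* ranged from -0.061 to 0.033, *cavin2b* from -0.12 to 0.043, *xbp1* from -0.081 to 0.038, *mfsd8* from -0.18 to 0.039 and *kdelr2b* from -0.078 to 0.058. The cause of these changes was not tested. With 3 libraries a group, the 95% intervals of the members not called span 0.52 to 0.79 on the log2 scale.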

Other observations

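The share of each gene in the RPKM of its family was described, a measure chosen after the values were seen and with no test. These are shares of RNA in whole larvae, over genes used by different tissues. They do not give the protein makeup of any coat. *cav3* made up 49.7%, 45.9% and 50.03% of the caveolin RPKM in *mgt* replicates 1, 2 and 3, against 49.0%, 52.6% and 59.9% in WT, and *cav1* 37.9%, 41.5% and 37.6% in *mgt*, against 39.1%, 36.7% and 31.4% in WT. WT replicate 1 lay within the range of *mgt* in both shares, and WT replicate 3 stood farthest from it. The share of *cav2* was 12.4% ± 0.131 in *mgt* and 10.5% ± 1.57 in WT (SD, n = 3 pools each), and the groups did not overlap. Among the cavins *cavin2b* and *cavin4a* made up 29.9% ± 0.633 and 24.5% ± 0.165 in *mgt* and 27.1% ± 2.67 and 26.4% ± 3.66 in WT. *cavin1a* had the smallest share in both genotypes, 5.18%, 4.22% and 3.94% in *mgt*, against 3.33%, 3.51% and 3.40% in WT, and its *mgt* libraries were all above its WT libraries. In sum the 6 cavins came to 145, 144 and 144 RPKM in *mgt*, against 146, 186 and 168 RPKM in WT, and the 3 caveolins to 84.5, 76.9 and 78.6 RPKM in *mgt*, against 89.2, 117 and 111 RPKM in WT.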
